A study of Mus musculus with 24 samples.

Results

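Microglia and astrocytes of the mouse brain were compared without an immune challenge, in 6 of the 24 RNA sequencing libraries of the series: the 3 titled as microglia from saline-injected Serpine2 controls and the 3 titled as astrocytes from saline-injected Serpine2 controls. Serpine2 genotype, cell type and an injection of saline or of the bacterial wall component LPS made 8 groups of 3 libraries. The mice were adults, and controls were littermates of Serpine2-/- mice that kept 1 or more functional alleles, so wild types and heterozygotes cannot be told apart here. Serpine2 encodes protease nexin-1, a secreted inhibitor of serine proteases. The microglia came from whole brain, freed by douncing and a Percoll step, and the astrocytes from cerebral cortex, freed by papain at 34.5C for 45 minutes. Cells of both kinds were then bound to dishes coated with antibodies whose targets the labels do not name, and their RNA was sequenced. Sex was mixed in each group, with 1 female and 2 male mice. Cell type therefore goes together with brain region and with the way the cells were freed, and these cannot be told apart in any difference given here. The comparison covers the 52367 nuclear gene identifiers listed for both cell types, of which 20182 had enough counts to test.

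Microglia are the resident macrophages of the brain. They arise from the myeloid lineage, depend on signalling through the receptor encoded by Csf1r, watch the tissue through purinergic and pattern recognition receptors, and engulf debris and synapses. Astrocytes arise from the neural lineage. They clear glutamate and potassium around synapses, couple to each other through gap junctions, supply neurons and other glia with lipids and metabolites, and secrete matrix proteins that shape synapses.

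Values are counts-per-million values (CPM) after scaling by TMM, a method that equalises the bulk of genes between libraries, and they are given for libraries 1, 2 and 3 of a group in that order. A log2 fold change is microglia minus astrocytes, with its standard error (SE). A gene was called when its Benjamini-Hochberg adjusted p in edgeR's quasi-likelihood test was under 0.05 over all genes tested. Intervals are 95% intervals. In bulk samples such as these, fewer cells of a type and less RNA per cell cannot be told apart.

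The libraries of the 2 cell types differed in make-up as well as in cell type. Each astrocyte library held 17526466 to 23202563 counts in genes and each microglia library 5354865 to 13584388. After mitochondrial genes and identifiers listed for 1 cell type were dropped, 7907632 to 9200715 and 5167945 to 11364819 counts remained, for astrocytes and microglia. Identifiers listed for 1 cell type had held 13.2% to 24.6% of gene counts in astrocytes and 0.836% to 13.5% in microglia. Reads that the deposited files assign to no gene made up 64.6% to 77.0% of uniquely placed reads in microglia and 25.1% to 25.5% in astrocytes. Mitochondrial genes took 2.66% to 5.32% of gene counts in microglia and 36.6% to 44.1% in astrocytes. Genes with 1 or more counts numbered 28578 to 30714 in microglia and 22321 to 24046 in astrocytes. The part of these differences in the results was not tested. Microglia library 2 was lowest for several microglia markers, among them Tmem119. Xist and the Y-linked Ddx3y matched the sex label in 6 of 6 libraries. Among 4782 genes at 50 CPM or more, the median SD of log2 CPM over 3 libraries was 0.336 in microglia and 0.198 in astrocytes. Over all genes tested it was 0.408 in microglia and 0.402 in astrocytes. The common dispersion, edgeR's measure of spread within a group, went the other way, at 0.115 in microglia and 0.177 in astrocytes.

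Most of the transcriptome separated the 2 cell types. Of 20182 genes tested, 6145 (30.4%) were higher in microglia and 4890 (24.2%) were higher in astrocytes, 54.7% in all. Of those called, 10026 had a fitted difference of 2-fold or more. Tested against a 2-fold change, 4433 genes were higher in microglia and 2839 in astrocytes. The median log2 fold change of all genes tested was 0.23, with a middle 50% of genes between −0.95 and 1.84. Counts of called genes in the lists below are to be read against these shares. A listed gene with few or no counts in 1 cell type passed the filter through the other, which largely fixed its direction. Long noncoding RNAs and protein-coding genes were called in different proportions. Among 4047 long noncoding RNAs, 48.5% were higher in microglia and 6.82% in astrocytes, with a median of 1.66. Of 14207 protein-coding genes, 25.7% and 28.5% were called, with a median of −0.04.

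**Figure D1:**
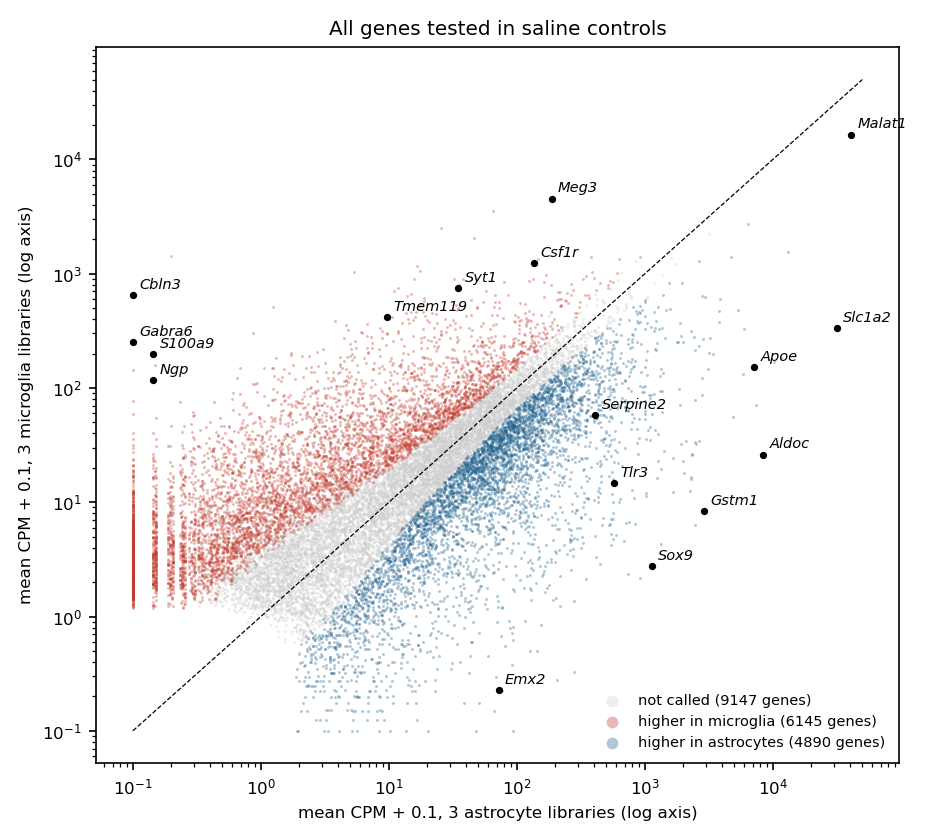
Mean CPM plus 0.1 in the 3 microglia libraries (vertical, log axis) against the 3 astrocyte libraries (horizontal, log axis) for the 20182 genes tested, with 1 point per gene and the dashed line at equal levels. The 6145 red genes above the line were called higher in microglia and the 4890 blue genes below it higher in astrocytes, with Cbln3 and Gabra6 at 0 in astrocytes and Emx2 close to 0 in microglia.

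The labelled cell types carried their own markers. Of 15 astrocyte markers, 15 were called higher in astrocytes, with a median log2 fold change of −6.56. Their summed level was 61690.1, 54156 and 56702 CPM in astrocytes and 878, 737 and 734 CPM in microglia. Aqp4, the water channel of astrocyte endfeet, was at 2167, 2305 and 2366 CPM in astrocytes and 17.8, 21.7 and 10.4 CPM in microglia. Aldh1l1, a folate enzyme used to mark astrocytes, was at 335, 204 and 281 CPM in astrocytes and 2.499, 3.19 and 4.14 CPM in microglia. The groups did not overlap for either marker, as for 64.8% of all genes tested. Of the 15 microglia markers, 14 were called higher in microglia, with a median of 2.64. Their summed level was 5521, 2885 and 4257 CPM in microglia and 645, 622 and 578 CPM in astrocytes. Microglia library 2 was the lowest of its group, and the astrocyte libraries were not free of microglia transcripts. Tmem119, a surface protein of microglia, was at 645, 166 and 441 CPM in microglia and 11.1, 11.6 and 6.24 CPM in astrocytes (log2 fold change 5.43, SE 0.48, adjusted p 1.53e-06). P2ry12, the ADP receptor that steers microglial processes, was at 325, 338 and 315 CPM in microglia and 44.6, 81.8 and 57.3 CPM in astrocytes (log2 fold change 2.41, SE 0.26, adjusted p 7.68e-06). Microglia library 2 was low for Tmem119 and not for P2ry12, and the groups did not overlap for either. Sall1, a transcription factor that keeps microglia identity and is also made by neural cells, went the other way, at 103, 62.1 and 83.4 CPM in microglia and 132, 139.6 and 122 CPM in astrocytes (log2 fold change −0.66, SE 0.24, adjusted p 0.0358). Sall1 lost its call with any 1 of astrocyte library 1, astrocyte library 2, astrocyte library 3 and microglia library 2 left out, at log2 fold changes of −0.67 to −0.47 and adjusted p of 0.0824 to 0.14.

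Markers of other cells were present in both preparations and differed between them. Of 15 neuron markers, 10 were higher in microglia and none in astrocytes, with a median of 1.77, which was 3.88 without astrocyte library 3, 2.83 with DESeq2 and 3.16 with the replicate number as a block. Their sum was 3029, 2911 and 3629.8 CPM in microglia and 1325, 1169 and 1316 CPM in astrocytes. Syt1, the calcium sensor of synaptic vesicles, was at 747, 734 and 755 CPM in microglia and 30.5, 50.6 and 23.1 CPM in astrocytes (log2 fold change 4.42, SE 0.31, adjusted p 2.33e-07). Map2 and Camk2a, the most abundant of the neuron markers in astrocytes, were not called. Of 10 oligodendrocyte markers, 10 were higher in astrocytes, with a median of −1.53. Against a 2-fold threshold 5 of them were called, and leaving out 1 library gave 7 to 10. These summed to 14209.5, 12938 and 11453 CPM in astrocytes and 4008, 1478 and 3202 CPM in microglia. Mbp, a myelin structural protein, was at 7262, 4851 and 3941 CPM in astrocytes and 617, 304 and 533 CPM in microglia. Neutrophil markers were on the microglia side, with 11 of the 11 tested (of 12 listed) called higher there. Of the 12, 5 had no count in the 3 astrocyte libraries and could pass the filter only through microglia. The count called is therefore no support for the direction. The tested markers summed to 694, 799 and 614 CPM in microglia and 5.77, 1.19 and 2.97 CPM in astrocytes. The median over the neutrophil markers was 10.17, or 7.23 with the genes at 0 in astrocytes set to their bound. Macrophages of the brain's borders and blood monocytes are relatives of microglia. Border macrophage markers summed to 130.4, 108 and 166 CPM in microglia and 15.2, 18.1 and 22.01 CPM in astrocytes. Monocyte markers summed to 24.8, 47.5 and 20.98 CPM in microglia and 0, 0.132 and 1.09 CPM in astrocytes. Cd163, the haemoglobin scavenger receptor of border macrophages, was at 2.65, 5.77 and 4.29 CPM in microglia and at 0 in the 3 astrocyte libraries. None of the 8 T and NK cell markers had enough counts to test. Endothelial markers summed to 87.01, 51.6 and 104 CPM in microglia and 471, 398 and 384 CPM in astrocytes, and 1 gene, Slc2a1, made up 458, 385 and 348 CPM of the latter. Mural markers summed to 31.6, 15.2 and 37.2 CPM in microglia and 259, 304 and 276 CPM in astrocytes, again with most of it from 1 gene, Pdgfrb, at 216, 272 and 220.4 CPM. The part of these other cells in the results was not tested. Map2 was called without microglia library 2 (log2 fold change −0.71, adjusted p 0.0179).

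**Figure D2:**
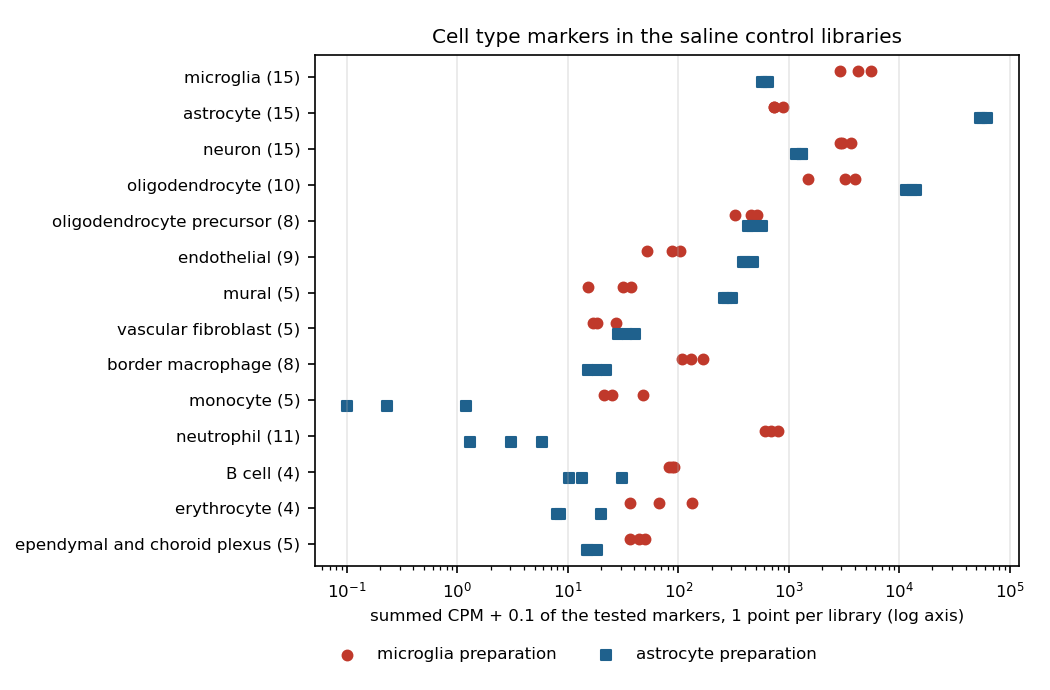
Summed CPM plus 0.1 (log axis) of the tested markers of 14 cell types, with 1 point per library, red circles for microglia and blue squares for astrocytes, and the number of tested markers in brackets. Astrocyte and oligodendrocyte markers lie to the right in the astrocyte libraries, while microglia, neuron, neutrophil, monocyte and border macrophage markers lie to the right in the microglia libraries.

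Genes that mark brain regions also differed between the preparations. Of 18 genes that mark hindbrain and cerebellum, 9 had enough counts to test and 8 were higher in microglia. Of the 18, 11 had no count in the 3 astrocyte libraries and could pass the filter only through microglia. The tested genes summed to 1669, 885 and 1583 CPM in the whole-brain microglia preparations and 54.1, 48.6 and 37.9 CPM in the cortical astrocyte preparations. Cbln3 (GRCm38 chromosome 14, 55878913 to 55884392, minus strand, as for the positions below), a protein secreted by cerebellar granule cells, was at 786, 409 and 764 CPM in microglia and at 0 in the 3 astrocyte libraries. Against a floor of 3 counts over the astrocyte group it was at least 4721-fold higher. Gabra6, a GABA receptor subunit of cerebellar granule cells, was at 366, 186 and 199.9 CPM in microglia and 0 in astrocytes, at least 1647-fold higher. Cbln3 was lowest in microglia library 2. Zic1, a transcription factor of cerebellar precursors, was at 132, 80.6 and 141 CPM in microglia and 3.84, 9.38 and 8.43 CPM in astrocytes (log2 fold change 4.02, SE 0.38, adjusted p 2.46e-06). Of 14 genes of striatum and diencephalon 8 were tested. Among these, 4 were higher in microglia and 2 in astrocytes. Tcf7l2, a thalamic and glial transcription factor, was on the astrocyte side, at 189, 199.9 and 195 CPM in astrocytes and 21.8, 11.8 and 21.8 CPM in microglia. Of 12 telencephalic genes 11 were tested, and 6 were higher in astrocytes. Lhx2, a cortical selector gene that is also made by astrocytes, was at 519, 436 and 444 CPM in astrocytes and 4.12, 6.07 and 8.57 CPM in microglia (log2 fold change −6.19, SE 0.32, adjusted p 2.30e-08). Otx1, another such factor, was at 127, 118 and 139 CPM in astrocytes and 0.588, 0.607 and 2.66 CPM in microglia. The 4 that were higher in microglia include neuronal transcription factors such as Tbr1, at 15.4, 20.04 and 28.3 CPM in microglia and 7.54, 5.28 and 9.84 CPM in astrocytes. Whether brain region, neuron content or cell type gave these values cannot be told apart.

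The widest gaps toward microglia, among genes of at least 50 CPM there, were of 2 kinds. Besides Cbln3 and Gabra6, the first kind held Cbln1, Fat2, Gabrd, Cnpy1, Penk and Crhr1, genes of cerebellar granule cells or of other neurons. Penk, which encodes the enkephalin precursor, was at 88.9, 51.9 and 90.7 CPM in microglia and 0 in astrocytes, at least 558-fold higher. Cnpy1, of the Canopy family, was at 156, 155 and 122 CPM in microglia and 0 in astrocytes, at least 959-fold higher. The second kind held S100a8, S100a9, Ngp and Ltf, granule and cytosolic proteins of neutrophils. S100a9 (chromosome 3, 90692632 to 90695721, minus strand), a subunit of calprotectin, was at 202, 268 and 122 CPM in microglia and 0, 0.132 and 0 CPM in astrocytes. Its single count in astrocytes gave a ratio of 3691, with a 95% interval of 662 to 145831. S100a8 (chromosome 3, 90668978 to 90670035, plus strand), the other subunit, was at 153, 181 and 145 CPM in microglia and 0.148, 0 and 0 CPM in astrocytes. Its ratio was 3235, with a 95% interval of 580.2 to 127789. The calprotectin genes were thus high in each microglia library and at 1 count in the astrocyte group. Ltf, lactoferrin, was at 59.4, 75.8 and 42.8 CPM in microglia and at 0 in astrocytes, at least 381-fold higher. Ratios and bounds cover counting error only. No gene of this set of 12 is a microglia marker.

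The widest gaps toward astrocytes, by the same rule, held transcription factors and metabolic genes of astrocytes. Sox9 (chromosome 11, 112782224 to 112787760, plus strand), which specifies glia from neural precursors, was at 1204, 1013 and 1191 CPM in astrocytes and 1.91, 1.52 and 4.58 CPM in microglia (log2 fold change −8.63, SE 0.43, adjusted p 1.63e-08). Sox21, of the same family, was at 129, 143 and 161 CPM in astrocytes and 0.294, 0.759 and 0.148 CPM in microglia. Emx2, a homeobox factor of the dorsal telencephalon, was at 75.3, 68.96 and 71.2 CPM in astrocytes and 0, 0.304 and 0.0739 CPM in microglia. With 3 counts over the microglia group, its ratio was 643, with a 95% interval of 219.8 to 3124. Its fitted log2 fold change was −9.13, and −10.12 without microglia library 2. Ppp1r3g and Ppp1r3c encode subunits that bring a phosphatase to glycogen. Ppp1r3g was at 135, 66.7 and 78.7 CPM in astrocytes and 0 in microglia, at least 830.4-fold higher in astrocytes. Ppp1r3c was at 816, 682 and 710.2 CPM in astrocytes and 2.499, 2.73 and 1.48 CPM in microglia (log2 fold change −8.41, SE 0.33, adjusted p 8.07e-09). Dio2, the enzyme that turns thyroxine into active thyroid hormone, was at 1436, 1199 and 1366 CPM in astrocytes and 6.03, 3.95 and 2.73 CPM in microglia (log2 fold change −8.33, SE 0.36, adjusted p 8.07e-09). Gstm1, a glutathione transferase whose reads may be shared with near-identical copies, was at 3671, 2960.3 and 2073 CPM in astrocytes and 7.79, 7.59 and 9.24 CPM in microglia. Fam107a, a stress-induced actin-bundling protein, was at 2926, 2369.8 and 2149 CPM in astrocytes and 9.26, 5.77 and 3.55 CPM in microglia. Rpe65, Dmp1, Ucp3 and Gstm2-ps1 completed the set. In each of the 12 the lowest astrocyte library stood above the highest microglia library. Selection by fold change favours this, and the groups did not overlap for 64.8% of all genes tested. Sox9 had a log2 fold change of −9.35 without microglia library 3.

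Promoters of these 24 genes were read for 3 short motifs, because the factors that bind them are known to act in 1 of the 2 lineages. RefSeq windows on GRCm38.p6, from 250 bases before to 50 after a transcription start, were found for 19 genes (24 windows). The letters GAGGAAG, a core bound by PU.1, the product of Spi1, were found on 1 or the other strand in 2 of 10 windows of genes higher in microglia (20%) and in 3 of 14 windows of genes higher in astrocytes (21.4%), beside 13.6% of all 32851 windows in the table. The letters ACAATG, a core bound by SOX proteins, were in 0 of 10 and 1 of 14 windows (7.14%), beside 12.6% of all. The full palindromic site of NFI factors was in 0 of the 24, beside 0.0365% of all. No match of 1 motif overlapped a match of another in these windows. A window of each direction with the GAGGAAG core is shown because the same letters stand beside genes at opposite ends of the comparison. It runs from 250 to 101 bases before the start, 5′ to 3′ on the plus strand, with the match in capitals. The first lies at chr3:90668821-90668970, where the capitals are the reverse complement of the motif, and the second at chr5:104202367-104202516.
S100a8: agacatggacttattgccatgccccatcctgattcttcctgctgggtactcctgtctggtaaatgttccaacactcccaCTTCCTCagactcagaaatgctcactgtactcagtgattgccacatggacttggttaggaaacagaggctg
Dmp1: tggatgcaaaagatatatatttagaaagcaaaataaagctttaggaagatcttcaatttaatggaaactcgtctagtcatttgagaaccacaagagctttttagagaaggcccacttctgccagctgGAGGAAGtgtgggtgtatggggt
S100a8 has its values above. Dmp1, a phosphoprotein of bone matrix, was at 60.03, 84.7 and 83.8 CPM in astrocytes and 0.147, 0.152 and 0.0739 CPM in microglia. The match is a description of letters in a window and no binding was measured.

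Among abundant genes with a 2-fold or larger difference, the top of the microglia side included noncoding RNAs. Meg3, an imprinted noncoding RNA of neurons, was at 3392, 6158 and 4078 CPM in microglia and 140.01, 178 and 243 CPM in astrocytes (log2 fold change 4.6, SE 0.33, adjusted p 2.41e-07). Rian, of the same locus, was at 2226, 2893 and 2422 CPM in microglia and 21.9, 28.005 and 26.5 CPM in astrocytes. Snhg11, Ank3, Ptprd and Fat2 were also in this set, and most of these genes are known from neurons. The astrocyte side included Malat1, Slc1a2, Lars2, Sparcl1, Glul, Aldoc and Apoe. Malat1, a nuclear noncoding RNA, was at 37247, 41974 and 43624 CPM in astrocytes and 17303, 19436 and 12748 CPM in microglia. It was high in the 6 libraries and did not overlap between groups, as for 64.8% of all genes tested. Lars2, a mitochondrial leucyl-tRNA synthetase, was at 23318, 8685 and 7714 CPM in astrocytes and 1438, 154 and 3023 CPM in microglia and spread widely in both groups. Levels of different genes were compared per kilobase of exon. On that scale the mean of C1qb, a complement chain, ranked 3 among the genes tested in microglia at 594 CPM per kb, and S100a9 ranked 5 at 378. Further down were the lysosomal proteases Ctsd at 295 and Ctss at 255, Csf1r at 215 and Tmem119 at 180.4 CPM per kb. Per kb, S100a9 thus stood above Csf1r and Tmem119 in these preparations. In astrocytes Sparcl1 ranked 3 at 3917 CPM per kb and Apoe 4 at 3352. Glul reached 3068, Aldoc 2569 and Slc1a2 2414 CPM per kb. Malat1 ranked 1 in both, at 2362 CPM per kb in microglia and 5864 in astrocytes. Lars2 lost its call with any 1 of astrocyte library 1, microglia library 1 and microglia library 3 left out, at log2 fold changes of −4.04 to −2.36 and adjusted p of 0.0786 to 0.222.

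Genes that sense LPS and other microbial patterns were split between the cell types. Of 28 listed, 25 were tested, 11 were higher in microglia and 5 in astrocytes, with a median of 0.43 beside 0.23 for all genes. Tlr4, the LPS receptor itself, did not pass the test, at 14.7, 7.59 and 12.2 CPM in microglia and 10.3, 9.11 and 9.06 CPM in astrocytes (log2 fold change 0.28, interval −0.65 to 1.20, adjusted p 0.605), and the groups overlapped. Its partner Ly96 was at 2.205, 1.97 and 1.26 CPM in microglia and 0.591, 7.27 and 0.937 CPM in astrocytes and was not called either. Cd14, the coreceptor that hands LPS to Tlr4, was higher in microglia, at 47.6, 15.03 and 30.5 CPM in microglia and 2.07, 5.28 and 3.75 CPM in astrocytes (log2 fold change 3.06, SE 0.51, adjusted p 0.000288). The receptors for other ligands went with microglia in most cases. Tlr2, for bacterial lipoproteins, was at 14.7, 13.7 and 19.4 CPM in microglia and 0.739, 0.925 and 2.65 CPM in astrocytes. Tlr7, for single-stranded RNA, was at 52.8, 33.7 and 23.7 CPM in microglia and 1.77, 6.74 and 7.96 CPM in astrocytes. Tlr13, for bacterial ribosomal RNA, was at 33.8, 27.3 and 25.9 CPM in microglia and 6.21, 1.59 and 2.498 CPM in astrocytes. Nlrp3 and Pycard are the sensor and adaptor of an inflammasome, and both were higher in microglia. Nlrp3 was at 9.41, 6.07 and 11.2 CPM in microglia and 0.444, 0.396 and 1.41 CPM in astrocytes. Pycard was at 65.6, 69.1 and 46.3 CPM in microglia and 6.06, 22.2 and 14.7 CPM in astrocytes. Tlr3 (chromosome 8, 45395665 to 45411080, minus strand), a receptor for double-stranded RNA, went the other way, at 527, 613 and 569 CPM in astrocytes and 15.4, 12.9 and 15.8 CPM in microglia (log2 fold change −5.27, SE 0.25, adjusted p 1.42e-08). The groups did not come near each other for Tlr3. Its adaptor Ticam1 was also higher in astrocytes, at 74.8, 56.9 and 47.3 CPM in astrocytes and 19.5, 8.66 and 29.7 CPM in microglia. The signal transducers Irak2 and Traf6 were higher in astrocytes as well. Irak2 was at 263, 189 and 189.5 CPM in astrocytes and 18.4, 8.96 and 24.4 CPM in microglia. Traf6 was at 102, 102 and 96.3 CPM in astrocytes and 43.7, 36.6 and 25.7 CPM in microglia. Myd88, the adaptor shared by most of these receptors, was at 9.26, 4.56 and 6.87 CPM in microglia and 9.76, 7.001 and 1.87 CPM in astrocytes and was not called (log2 fold change 0.15, interval −1.18 to 1.48). Among these LPS sensing genes Cd14 was thus on the microglia side, while Tlr4, Ly96 and Myd88 were not called. A gene that is not called is not shown to be equal, and the components were not tested against each other.

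**Figure D3:**
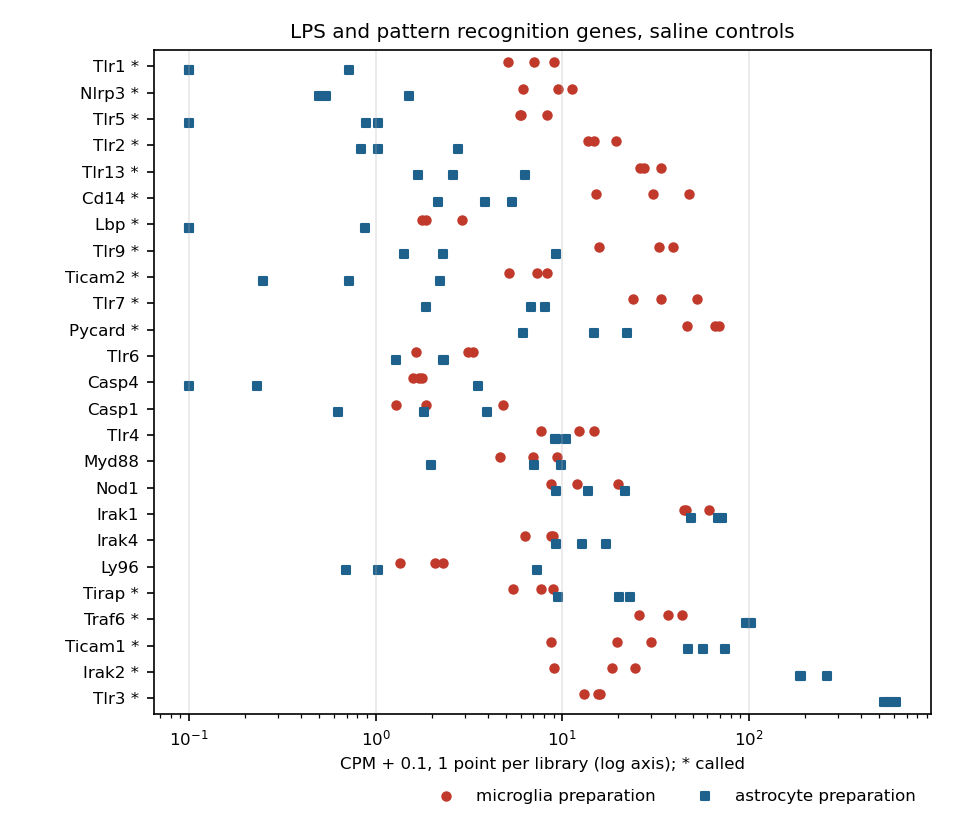
CPM plus 0.1 (log axis) of the 25 tested LPS and pattern recognition genes in each of the 3 microglia (red circles) and 3 astrocyte (blue squares) libraries, ordered by log2 fold change, with an asterisk for the 16 genes called. The red and blue points of Tlr4 and Myd88 overlap, those of Tlr2, Cd14 and Tlr7 lie apart with microglia higher, and those of Tlr3 lie far apart with astrocytes higher.

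Genes of Fc receptors and of ITAM signalling, which together let myeloid cells respond to antibody and to lipids, lay on the microglia side. All 17 were called higher in microglia, with a median of 3.24. Trem2, a lipid-sensing receptor, was at 143, 58.3 and 112 CPM in microglia and 3.84, 4.62 and 3.75 CPM in astrocytes (log2 fold change 4.67, SE 0.38, adjusted p 7.66e-07). Its signalling partner Tyrobp was at 232, 84.3 and 101 CPM in microglia and 26.8, 34.7 and 37.3 CPM in astrocytes (log2 fold change 2.08, SE 0.36, adjusted p 0.000415). Vav1, an exchange factor of immune cells, was at 56.4, 30.8 and 36.4 CPM in microglia and 2.37, 1.59 and 1.87 CPM in astrocytes (log2 fold change 4.40, SE 0.42, adjusted p 2.74e-06). The phosphatases Inpp5d and Ptpn6, which limit this signalling, lay on the same side. Inpp5d was at 118, 61.5 and 74.5 CPM in microglia and 8.72, 13.7 and 10.1 CPM in astrocytes. Ptpn6 was at 38.1, 28.4 and 30.7 CPM in microglia and 1.77, 1.59 and 3.28 CPM in astrocytes. The smallest difference in the list was that of Fcer1g, the shared gamma chain, at 78.3, 36.7 and 72.7 CPM in microglia and 23.5, 29.1 and 30.9 CPM in astrocytes (log2 fold change 1.17, SE 0.32). Btk and Lat2 were low in both groups. Btk lost its call without microglia library 1 (log2 fold change 3.03, adjusted p 0.0583). Lat2 lost its call without microglia library 1 (log2 fold change 3.06, adjusted p 0.0618).

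Complement genes differed by component. Of 22 listed, 17 were tested, 11 were higher in microglia and 3 in astrocytes, with a median of 1.56, which was 2.27 without astrocyte library 2. The C1q chains that start the classical pathway were on the microglia side. C1qb was at 929, 243 and 766 CPM in microglia and 83.4, 60.5 and 58.9 CPM in astrocytes (log2 fold change 3.26, SE 0.42, adjusted p 3.45e-05). C1qc was at 695, 198 and 632 CPM in microglia and 92.1, 61.6 and 46.2 CPM in astrocytes (log2 fold change 2.93, SE 0.42, adjusted p 9.43e-05). Microglia library 2 was the lowest for both. C1qa, at 229, 33.7 and 241 CPM in microglia and 53.5, 29.1 and 19.7 CPM in astrocytes, was called (log2 fold change 2.30, SE 0.58, adjusted p 0.00465) although microglia library 2 lay inside the astrocyte range. C3, the central component, was at 19.5, 25.4 and 12.3 CPM in microglia and 0, 0.396 and 0.468 CPM in astrocytes (log2 fold change 5.97, SE 0.73, adjusted p 2.45e-05). Itgam and Itgb2, the chains of complement receptor CR3, went with microglia. Itgam was at 158, 145 and 89.04 CPM in microglia and 26.5, 37.9 and 17.3 CPM in astrocytes. Itgb2 was at 69.1, 36.6 and 45.7 CPM in microglia and 1.48, 1.19 and 6.09 CPM in astrocytes. On the astrocyte side were C4b, Masp1 and Clu. C4b, a classical pathway component, was at 49.7, 75.03 and 60.1 CPM in astrocytes and 6.47, 4.86 and 12.5 CPM in microglia (log2 fold change −2.93, SE 0.38, adjusted p 4.37e-05). Masp1, a protease of the lectin pathway, was at 77.03, 105 and 77.9 CPM in astrocytes and 21.02, 16.2 and 20.2 CPM in microglia. Clu, a fluid-phase inhibitor also known as apolipoprotein J, was at 6966, 5584 and 5064 CPM in astrocytes and 156, 82.2 and 163 CPM in microglia (log2 fold change −5.46, SE 0.34, adjusted p 7.92e-08). C5ar1, Serping1 and Cd59a were not called. C5ar1 was called without astrocyte library 2 (log2 fold change 2.38, adjusted p 0.0084).

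Antimicrobial genes were on the microglia side. Of 31 listed, 23 were tested, 21 were higher in microglia and none in astrocytes, with a median of 3.94, or 3.87 with genes at 0 set to their bound. Of the 31, 10 had no count in the 3 astrocyte libraries and could pass the filter only through microglia. Without astrocyte library 2 the fitted median was 4.61. Camp, a neutrophil granule peptide, was at 40.9, 33.7 and 45.2 CPM in microglia and 0 in astrocytes, at least 286-fold higher. Ngp, another granule protein, was at 102, 118 and 129 CPM in microglia and 0, 0.132 and 0 CPM in astrocytes. Both stood beside the neutrophil marker sums given above, and the part of neutrophils in this list was not tested. Lyz2, lysozyme of macrophages and neutrophils, was at 179.6, 237 and 179 CPM in microglia and 5.91, 3.57 and 5.78 CPM in astrocytes (log2 fold change 5.29, SE 0.31, adjusted p 5.58e-08), with reads that may be shared with a near-identical copy. Mpeg1, a pore-forming protein of macrophages, was at 154, 116 and 110.2 CPM in microglia and 13.3, 28.7 and 24.4 CPM in astrocytes (log2 fold change 2.52, SE 0.31, adjusted p 2.81e-05). Ncf1 and Cyba encode subunits of the phagocyte oxidase. Ncf1 was at 136, 71.2 and 65.7 CPM in microglia and 6.36, 4.89 and 7.34 CPM in astrocytes. Cyba was at 35.4, 14.1 and 41.97 CPM in microglia and 3.25, 1.32 and 2.81 CPM in astrocytes. Lcn2, which binds iron carriers of bacteria, was at 44.98, 49.96 and 48.03 CPM in microglia and 13.5, 12.3 and 14.4 CPM in astrocytes (log2 fold change 1.83, SE 0.29, adjusted p 0.00018) and varied little within either group. Saa3, an acute-phase protein, was at 1.18, 1.82 and 2.14 CPM in microglia and 3.696, 3.302 and 4.06 CPM in astrocytes and was not called.

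Purinergic receptors and the enzymes that make their ligands were divided. Of 16 genes, 8 were higher in microglia and 3 in astrocytes, with a median of 1.37. P2ry13, an ADP receptor, was at 191, 185 and 145 CPM in microglia and 15.97, 5.15 and 9.21 CPM in astrocytes (log2 fold change 4.10, SE 0.38, adjusted p 2.11e-06). Gpr34, a receptor for lysophosphatidylserine, was at 99.7, 64.2 and 88.1 CPM in microglia and 7.84, 9.78 and 12.5 CPM in astrocytes (log2 fold change 3.07, SE 0.31, adjusted p 4.68e-06). Entpd1 and Nt5e, which turn ATP to AMP and AMP to adenosine, were both higher in microglia. Entpd1 was at 131, 68.3 and 67.5 CPM in microglia and 26.3, 29.1 and 23.1 CPM in astrocytes. Nt5e was at 24.5, 23.8 and 17.8 CPM in microglia and 6.36, 5.94 and 7.18 CPM in astrocytes. Entpd2, which makes ADP from ATP, was higher in astrocytes, at 118, 168 and 93.8 CPM in astrocytes and 1.62, 0.911 and 2.51 CPM in microglia (log2 fold change −6.14, SE 0.41, adjusted p 1.47e-07). Adora3 was at 9.11, 5.16 and 5.69 CPM in microglia and 0 in astrocytes, at least 44.4-fold higher. Adora2b was at 60.2, 60.9 and 51.1 CPM in astrocytes and 1.91, 1.21 and 0.813 CPM in microglia (log2 fold change −5.49, SE 0.41, adjusted p 3.41e-07). These adenosine receptors thus lay on opposite sides. P2rx4 was at 44.4, 31.7 and 64.1 CPM in microglia and 62.1, 66.3 and 35.8 CPM in astrocytes and was not called (log2 fold change −0.22, interval −0.93 to 0.48).

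Several cytokines and their receptors lay on opposite sides. Of 35 such genes, 14 were higher in microglia, 7 in astrocytes and 14 were not called, with a median of 0.46. Over all genes tested the shares were 30.4% and 24.2%, with a median of 0.23. Csf1r was at 1628, 770.2 and 1319 CPM in microglia and 161, 114 and 134 CPM in astrocytes (log2 fold change 3.18, SE 0.30, adjusted p 2.73e-06). Its ligand Csf1 was at 153, 158 and 126 CPM in astrocytes and 33.1, 20.04 and 35.9 CPM in microglia (log2 fold change −2.29, SE 0.28, adjusted p 2.13e-05). The other ligand, Il34, which neurons make, was higher in the microglia preparations, at 10.4, 9.41 and 29.1 CPM in microglia and 3.696, 2.11 and 1.09 CPM in astrocytes (log2 fold change 2.82, SE 0.62). Cx3cr1, the fractalkine receptor, was at 362, 193 and 289 CPM in microglia and 23.95, 17.2 and 15.5 CPM in astrocytes (log2 fold change 3.90, SE 0.31, adjusted p 5.52e-07). Cx3cl1, its neuronal ligand, was at 129.8, 104 and 324 CPM in microglia and 18.3, 10.4 and 25.8 CPM in astrocytes (log2 fold change 3.36, SE 0.45). Both neuronal ligands stood with the microglia preparations, as did the neuron markers given above. The forms of TGF-beta differed, with Tgfb1 and the receptor Tgfbr1 on the microglia side and Tgfb2 on the astrocyte side. Tgfb1 was at 32.04, 10.3 and 39.5 CPM in microglia and 4.58, 7.397 and 4.84 CPM in astrocytes. Tgfbr1 was at 162, 123 and 137 CPM in microglia and 36.7, 44.1 and 71.2 CPM in astrocytes. Tgfb2 was at 111, 118 and 104 CPM in astrocytes and 3.82, 7.59 and 8.42 CPM in microglia (log2 fold change −4.05, SE 0.33, adjusted p 7.47e-07). Il33 and the receptors Osmr and Cntfr were higher in astrocytes. Il6ra, the interleukin 6 receptor, was higher in microglia, at 57.5, 23.7 and 37.4 CPM in microglia and 2.81, 0.793 and 3.903 CPM in astrocytes (log2 fold change 3.99, SE 0.55, adjusted p 6.13e-05). Il33, an alarmin, was at 417, 488 and 443 CPM in astrocytes and 6.03, 0.759 and 1.55 CPM in microglia (log2 fold change −7.38, SE 0.56). Osmr, the oncostatin M receptor, was at 72.3, 60.1 and 92.6 CPM in astrocytes and 0.735, 0.759 and 0.222 CPM in microglia. Cntfr, the ciliary neurotrophic factor receptor, was at 580.000, 455 and 392.02 CPM in astrocytes and 34.2, 14.3 and 57.6 CPM in microglia. Il10ra, the interleukin 10 receptor of immune cells, went with microglia, at 79.4, 38.7 and 58.6 CPM in microglia and 0, 0.793 and 0.937 CPM in astrocytes (log2 fold change 6.63, SE 0.61, adjusted p 2.27e-06). The acute cytokines Tnf, Il1a and Il1b were under 6 CPM in each of the 6 libraries, and none was called. Tnf was at 1.18, 1.37 and 2.14 CPM in microglia and 0.148, 1.59 and 1.41 CPM in astrocytes. Il1b was at 0.735, 1.06 and 1.404 CPM in microglia and 2.66, 0.793 and 3.43 CPM in astrocytes. The interferon receptor subunits Ifnar1, Ifnar2, Ifngr1 and Ifngr2 were not called either, with Ifnar1 at 96.1, 80.9 and 87.6 CPM in microglia and 98.6, 110.2 and 106 CPM in astrocytes (log2 fold change −0.25, interval −0.72 to 0.22). Leaving out 1 library moved the fold by over 1.5 times for these genes: Il34 2.11 without microglia library 3, Cx3cl1 2.70 without microglia library 3 and Il33 −8.48 without microglia library 1 (log2 fold changes).

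Antigen presentation of class II was on the microglia side, and class I was mixed. All 8 class II genes tested were higher in microglia, with a median of 4.16, which was 6.11 without astrocyte library 2. H2-Ab1, a chain of the class II molecule, was at 28.1, 44.6 and 78.99 CPM in microglia and 0.296, 0.132 and 0.468 CPM in astrocytes (log2 fold change 7.37, SE 0.60, adjusted p 7.63e-07). H2-DMa, which loads peptide on it, was at 43.4, 18.8 and 70.05 CPM in microglia and 5.91, 4.62 and 9.52 CPM in astrocytes (log2 fold change 2.73, SE 0.48, adjusted p 0.00045). Microglia library 3 was the highest for both. Of 13 class I genes, 6 were higher in microglia and 1 in astrocytes, with a median of 0.36, and 3 were higher in microglia without microglia library 1. B2m, the light chain, was at 172, 219 and 161 CPM in microglia and 138, 146 and 147 CPM in astrocytes and was not called (log2 fold change 0.36, interval −0.11 to 0.82). H2-K1, a heavy chain with near-identical copies, was at 65.99, 34.5 and 52.3 CPM in microglia and 56.2, 93.4 and 60.6 CPM in astrocytes and was not called. Peptide processing genes were called in both directions. Psmb9, a subunit of the immunoproteasome, was at 11.5, 5.16 and 11.6 CPM in microglia and 2.81, 1.85 and 0.937 CPM in astrocytes. Erap1, which trims peptides, was at 37.6, 38.8 and 34.7 CPM in astrocytes and 8.38, 10.5 and 10.9 CPM in microglia (log2 fold change −1.90, SE 0.32, adjusted p 0.000286). Of 20 interferon-stimulated genes 19 were tested, 3 were higher in microglia and 5 in astrocytes. Without microglia library 1 these counts were 0 and 3, and without microglia library 2 or 3 the first was 1. Ifit3 was among the latter, at 16.4, 34.2 and 28.7 CPM in astrocytes and 1.18, 1.67 and 0.961 CPM in microglia. Ifi27 was too, at 38.4, 25.1 and 24.2 CPM in astrocytes and 9.99, 10.9 and 8.28 CPM in microglia. The median over the list was 0.31 and ran from −0.27 to 0.54 over the ways of processing, so its sign depends on them.

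Engulfment genes were on both sides. Of 20 listed 19 were tested, 5 were higher in microglia and 8 in astrocytes, with a median of −0.52, which was −1.14 without microglia library 3. The receptor kinases that recognise dying cells differed among themselves. Mertk was at 778, 798 and 924 CPM in astrocytes and 103, 67.7 and 55.05 CPM in microglia (log2 fold change −3.47, SE 0.28, adjusted p 6.36e-07). Axl was at 375, 318 and 327 CPM in astrocytes and 7.35, 7.44 and 8.79 CPM in microglia (log2 fold change −5.42, SE 0.26, adjusted p 1.42e-08). Tyro3, of the same family, was higher in microglia, at 169.6, 95.1 and 229.7 CPM in microglia and 66.7, 43.99 and 41.8 CPM in astrocytes (log2 fold change 1.70, SE 0.33, adjusted p 0.000794). Their bridging ligand Gas6 was at 70.99, 71.98 and 146 CPM in microglia and 116, 90.2 and 108 CPM in astrocytes, with the groups overlapping. Megf10, a phagocytic receptor of astrocytes, was at 389.7, 405 and 566 CPM in astrocytes and 45.3, 26.3 and 33.8 CPM in microglia. Mfge8, a bridge between phosphatidylserine and integrins, was at 2660.05, 2352 and 1875 CPM in astrocytes and 19.5, 7.29 and 20.5 CPM in microglia (log2 fold change −7.17, SE 0.42, adjusted p 5.96e-08). Dock2, an exchange factor of leukocytes, was at 48.2, 33.4 and 24.7 CPM in microglia and 5.03, 10.2 and 7.49 CPM in astrocytes. Its relative Dock1 was at 312, 338 and 364 CPM in astrocytes and 32.2, 22.6 and 18.3 CPM in microglia. These members of a family lay on opposite sides, and neither overlapped between groups, as for 64.8% of all genes tested.

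Of 25 lysosomal genes, 9 were higher in microglia and 8 in astrocytes, beside 30.4% and 24.2% of all genes tested. Counts this near those shares show nothing particular to lysosomal genes. The median of 0.26, beside 0.23 for all genes, ran from −0.04 to 0.48 over the ways of processing. Ctss, a protease of antigen-presenting cells, was at 431, 389 and 219 CPM in microglia and 56.9, 55.3 and 44.03 CPM in astrocytes (log2 fold change 2.73, SE 0.28, adjusted p 5.96e-06). Ctsh, an aminopeptidase, was at 94.9, 61.7 and 70.6 CPM in microglia and 2.22, 3.57 and 2.19 CPM in astrocytes (log2 fold change 4.82, SE 0.36, adjusted p 3.79e-07). These proteases stood higher in microglia. Cd68, a membrane protein of the organelle, was on that side too, at means of 96.1 CPM per kb of exon in microglia and 13.3 in astrocytes. Lamp1, Lamp2 and Cd63, also membrane proteins, went the other way. Lamp1 was at 1473, 1311 and 1296 CPM in astrocytes and 437, 224 and 345 CPM in microglia. Lamp2 was at 707.7, 867 and 774 CPM in astrocytes and 199, 166 and 139.9 CPM in microglia. Cd63 was at 155, 159 and 122 CPM in astrocytes and 19.1, 9.72 and 13.2 CPM in microglia (log2 fold change −3.38, SE 0.30, adjusted p 1.64e-06). Genes known as markers of disease-associated microglia were split too. Of 20 listed 18 were tested, 8 were higher in microglia and 5 in astrocytes. Apoe, the lipid carrier of brain lipoproteins, was at 8716, 7043 and 5739 CPM in astrocytes and 194, 95.4 and 169 CPM in microglia (log2 fold change −5.55, SE 0.34, adjusted p 8.22e-08). Fth1, ferritin heavy chain, was at 2029, 1919 and 1509 CPM in astrocytes and 382, 183 and 188 CPM in microglia. Lpl, lipoprotein lipase, was on the microglia side at 9.55, 11.4 and 15.5 CPM in microglia and 1.18, 0.396 and 1.56 CPM in astrocytes.

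Glutamate handling set the astrocytes apart. Of 17 genes of glutamate and GABA handling, 15 were higher in astrocytes and 1 in microglia, with a median of −5.00. Slc1a2, which clears glutamate from the synaptic cleft, was at 33767, 28448 and 32897 CPM in astrocytes and 338, 329 and 342 CPM in microglia (log2 fold change −6.56, SE 0.27, adjusted p 8.07e-09). Slc1a3, a second such transporter, was at 4807, 4717 and 5034 CPM in astrocytes and 67.5, 47.1 and 52.1 CPM in microglia (log2 fold change −6.45, SE 0.28, adjusted p 8.07e-09). The groups were far apart for both, with little spread within either. Glul, which turns glutamate to glutamine, was at 11944, 9965 and 8675 CPM in astrocytes and 294, 87.01 and 123 CPM in microglia (log2 fold change −5.92, SE 0.46). Glud1, which oxidises glutamate, was at 2938, 2836 and 2595 CPM in astrocytes and 92.6, 101 and 67.2 CPM in microglia. The cystine exchanger Slc7a11 was at 771, 822 and 873 CPM in astrocytes and 9.26, 15.03 and 8.13 CPM in microglia (log2 fold change −6.26, SE 0.31, adjusted p 1.80e-08). Maob, the monoamine oxidase of astrocytes, was at 161, 131 and 168 CPM in astrocytes and 0.294, 1.21 and 0.739 CPM in microglia. Grm3 and Grm5 are glutamate receptors of neurons and glia, and they lay on opposite sides. Grm3 was at 879.7, 785 and 755 CPM in astrocytes and 75.3, 57.2 and 92.4 CPM in microglia (log2 fold change −3.43, SE 0.25, adjusted p 3.31e-07). Grm5 was at 224.7, 270.1 and 296 CPM in microglia and 24.99, 16.8 and 18.7 CPM in astrocytes (log2 fold change 3.71, SE 0.26, adjusted p 2.35e-07). Glul had a log2 fold change of −6.59 without microglia library 1.

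Of 18 ion, water and junction genes, 16 were higher in astrocytes and none in microglia, with a median of −4.41. Gja1, the main connexin of the astrocyte network, was at 1697, 1655 and 1657 CPM in astrocytes and 12.8, 10.2 and 13.5 CPM in microglia (log2 fold change −7.09, SE 0.28, adjusted p 8.07e-09). Gjb6, another connexin, was at 702, 778 and 639.9 CPM in astrocytes and 8.82, 6.38 and 4.21 CPM in microglia. Kcnj10, the potassium channel of astrocytes, was at 1049, 759.6 and 874 CPM in astrocytes and 49.1, 18.8 and 40.8 CPM in microglia (log2 fold change −4.62, SE 0.36, adjusted p 4.57e-07). Slc12a2 and Clcn2 were the genes not called, with Slc12a2 at 231, 290.1 and 296 CPM in astrocytes and 284, 237 and 182 CPM in microglia (log2 fold change −0.22, interval −0.72 to 0.28). Of 8 ion channel genes associated with microglia 7 were tested and 4 were higher in microglia. Trpv2, a cation channel, was at 38.4, 24.6 and 62.1 CPM in microglia and 3.99, 1.59 and 2.19 CPM in astrocytes (log2 fold change 4.01, SE 0.49, adjusted p 2.22e-05). Kcnk13, a potassium channel linked to inflammasome activity, was at 18.1, 9.57 and 12.4 CPM in microglia and 9.31, 3.04 and 7.81 CPM in astrocytes and was not called (adjusted p 0.114). Lrrc8a, a subunit of the volume-regulated anion channel, was higher in astrocytes, at 86.5, 71.9 and 78.8 CPM in astrocytes and 30.1, 15.6 and 35.2 CPM in microglia. Clcn2 was called without microglia library 3 (log2 fold change −0.61, adjusted p 0.029).

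Most transcription factors lay on the side of the cell type they were listed for. Emx2 and Lhx2 of the astrocyte list are also telencephalic genes, and cell type and brain region cannot be told apart. All 22 factors listed for astrocytes were called higher there, with a median of −5.04. Besides Sox9, these included Sox2, a factor of neural precursors, at 139.9, 180.4 and 158 CPM in astrocytes and 2.65, 1.67 and 2.51 CPM in microglia. Hes1, an effector of Notch signalling, was at 71.1, 127 and 93.5 CPM in astrocytes and 2.35, 3.19 and 2.51 CPM in microglia. Rfx4, a factor of the neural tube and glia, was at 260.1, 233 and 281 CPM in astrocytes and 2.94, 5.47 and 2.73 CPM in microglia (log2 fold change −6.14, SE 0.33, adjusted p 2.97e-08). The nuclear factors Nfia and Nfib, which drive gliogenesis, were detected in both preparations. Nfia was at 674, 736 and 702 CPM in astrocytes and 75.7, 54.2 and 76.1 CPM in microglia (log2 fold change −3.36, SE 0.24, adjusted p 2.46e-07). Nfib was at 465, 406 and 478 CPM in astrocytes and 210.2, 207 and 146 CPM in microglia (log2 fold change −1.26, SE 0.23, adjusted p 0.00049). Of 18 factors listed for myeloid cells, 12 were higher in microglia and 4 in astrocytes, with a median of 1.88, and 2 were higher in astrocytes without astrocyte library 3. Spi1, which encodes PU.1, was at 33.8, 13.8 and 41.01 CPM in microglia and 3.99, 4.36 and 2.81 CPM in astrocytes (log2 fold change 2.98, SE 0.47, adjusted p 0.000195). Ikzf1, a zinc finger factor of blood cells, was at 82.2, 50.6 and 36.1 CPM in microglia and 1.48, 3.302 and 5.31 CPM in astrocytes (log2 fold change 4.06, SE 0.48, adjusted p 1.89e-05). Mef2c, used by microglia and neurons, was at 162, 304 and 249.6 CPM in microglia and 46.3, 53.5 and 57.6 CPM in astrocytes (log2 fold change 2.18, SE 0.27, adjusted p 2.47e-05). The factors of the myeloid list that went with astrocytes were Sall3, Bhlhe41, Elf1 and Sall1, of which Sall1 is described with the markers. Bhlhe41, a repressor in tissue macrophages that is also a clock gene, was at 256, 264 and 269.9 CPM in astrocytes and 88.6, 112 and 54.5 CPM in microglia (log2 fold change −1.64, SE 0.27, adjusted p 0.000248). Elf1 lost its call without astrocyte library 3 (log2 fold change −0.91, adjusted p 0.0936). Sall1 lost its call with any 1 of astrocyte library 1, astrocyte library 2, astrocyte library 3 and microglia library 2 left out, at log2 fold changes of −0.67 to −0.47 and adjusted p of 0.0824 to 0.14.

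The enzymes of cholesterol synthesis lay on the astrocyte side. Of 18 listed, 17 were higher in astrocytes and none in microglia, with a median of −2.21. Hmgcs1, at the entry of the pathway, was at 732, 822 and 1029 CPM in astrocytes and 27.2, 44.2 and 28.2 CPM in microglia (log2 fold change −4.70, SE 0.29, adjusted p 8.34e-08). Msmo1, a sterol oxidase late in the pathway, was at 828, 1115 and 1079 CPM in astrocytes and 57.6, 80.2 and 52.2 CPM in microglia (log2 fold change −3.99, SE 0.27, adjusted p 1.64e-07). Ebp, a sterol isomerase, was the gene not called, at 11.2, 21.8 and 16.9 CPM in astrocytes and 34.4, 18.1 and 20.2 CPM in microglia. Of 20 genes of lipid transport and fatty acid oxidation, 16 were higher in astrocytes and 2 in microglia. Cpt1a, which brings fatty acids into mitochondria, was at 193, 234 and 248 CPM in astrocytes and 18.8, 12.3 and 11.1 CPM in microglia (log2 fold change −4.01, SE 0.29, adjusted p 2.49e-07). Lcat, which esterifies cholesterol on lipoproteins, was at 366, 360.4 and 246 CPM in astrocytes and 5.29, 2.89 and 6.43 CPM in microglia (log2 fold change −6.02, SE 0.35, adjusted p 5.21e-08). Those higher in microglia were Abcg1 and Vldlr. Abcg1, a sterol exporter, was at 117, 60.3 and 162 CPM in microglia and 30.9, 29.1 and 34.5 CPM in astrocytes (log2 fold change 1.85, SE 0.33, adjusted p 0.000502). Vldlr, a lipoprotein receptor, was at 236, 232 and 205 CPM in microglia and 116, 154 and 136 CPM in astrocytes (log2 fold change 0.73, SE 0.21, adjusted p 0.0119). Abca1, a related exporter, lay on the other side at 366, 435 and 491 CPM in astrocytes and 103, 62.7 and 125 CPM in microglia (log2 fold change −2.15, SE 0.27, adjusted p 3.51e-05).

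Sugar metabolism was divided by isoform. Of 27 genes, 17 were higher in astrocytes and 7 in microglia, with a median of −1.28. Aldoc, the aldolase of astrocytes, was at 10142, 8838 and 6168 CPM in astrocytes and 29.2, 14.6 and 34.1 CPM in microglia (log2 fold change −8.33, SE 0.42, adjusted p 2.01e-08). Aldoa, the ubiquitous form, was also higher in astrocytes, at 593, 437 and 365 CPM in astrocytes and 144, 74.9 and 124 CPM in microglia (log2 fold change −2.03, SE 0.29, adjusted p 7.94e-05). Sugar transporters lay on both sides. The glucose transporter Slc2a1 was at 458, 385 and 348 CPM in astrocytes and 58.9, 20.7 and 76.99 CPM in microglia. Slc2a3, the neuronal form, was at 159, 143 and 190.1 CPM in microglia and 3.55, 8.85 and 7.34 CPM in astrocytes (log2 fold change 4.63, SE 0.35, adjusted p 3.81e-07). Slc2a5, a fructose transporter of microglia, was at 70.3, 35.1 and 51.6 CPM in microglia and 4.14, 8.59 and 1.25 CPM in astrocytes (log2 fold change 3.47, SE 0.54). Hexokinases were split as well. Hk1 was at 177, 125 and 153 CPM in astrocytes and 64.8, 51.02 and 86.5 CPM in microglia. Hk3, the form of myeloid cells, was at 17.3, 10.6 and 18.03 CPM in microglia and 1.63, 1.19 and 1.56 CPM in astrocytes (log2 fold change 3.39, SE 0.52, adjusted p 0.000147). The same held for lactate transporters. Slc16a1 was at 59.7, 65.8 and 69.8 CPM in astrocytes and 25.4, 20.5 and 16.03 CPM in microglia (log2 fold change −1.66, SE 0.28, adjusted p 0.00032). Slc16a7, the neuronal form, was at 54.2, 60.4 and 58.003 CPM in microglia and 20.1, 14.9 and 12.6 CPM in astrocytes (log2 fold change 1.86, SE 0.29, adjusted p 0.000187). The glycogen phosphorylases lay with astrocytes. Pygb was at 1255, 1114 and 1023 CPM in astrocytes and 54.7, 44.3 and 76.99 CPM in microglia (log2 fold change −4.27, SE 0.28, adjusted p 1.26e-07). Pygm was at 134, 115 and 115 CPM in astrocytes and 2.06, 1.97 and 4.73 CPM in microglia. Slc2a5 had a log2 fold change of 4.32 without astrocyte library 2.

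Receptors for growth factors and morphogens were on the astrocyte side, with 24 of 27 higher there, 1 higher in microglia and a median of −3.15. S1pr1, a sphingosine phosphate receptor, was at 2362, 2153 and 2282 CPM in astrocytes and 12.6, 10.02 and 14.9 CPM in microglia (log2 fold change −7.49, SE 0.30, adjusted p 8.07e-09). Fgfr3, a fibroblast growth factor receptor, was at 979.6, 1047 and 1058 CPM in astrocytes and 12.5, 10.2 and 11.2 CPM in microglia (log2 fold change −6.51, SE 0.26, adjusted p 8.07e-09). Gli3, an effector of Hedgehog signalling, was at 431, 389 and 401 CPM in astrocytes and 5.29, 4.0999 and 5.47 CPM in microglia (log2 fold change −6.35, SE 0.27, adjusted p 8.07e-09). Ntrk2, the receptor of BDNF, was detected in both preparations. It was at 3774, 3829 and 4043 CPM in astrocytes and 631, 489 and 693 CPM in microglia (log2 fold change −2.68, SE 0.23, adjusted p 1.37e-06). The gene called toward microglia was Erbb4, a neuregulin receptor of interneurons, at 200.5, 145 and 151 CPM in microglia and 38.6, 61.2 and 49.6 CPM in astrocytes (log2 fold change 1.73, SE 0.26, adjusted p 0.000117). Igf1r and Insr, the receptors of IGF1 and insulin, were not called, with Insr at 235, 214 and 309 CPM in microglia and 277, 250.1 and 244 CPM in astrocytes (log2 fold change −0.03, interval −0.50 to 0.45). Of 23 secreted growth factors 20 were tested, 10 were higher in astrocytes and 5 in microglia. Vegfa, which drives vessel growth, was at 564, 466 and 603 CPM in astrocytes and 31.3, 28.9 and 44.9 CPM in microglia (log2 fold change −3.95, SE 0.26, adjusted p 1.56e-07). Fgf1 was at 538, 407 and 413 CPM in astrocytes and 13.96, 20.7 and 10.4 CPM in microglia (log2 fold change −4.92, SE 0.31, adjusted p 9.72e-08). Growth factors on the microglia side included Igf1 and Pdgfb. Igf1 was at 8.97, 12.5 and 10.9 CPM in microglia and 1.33, 1.59 and 0 CPM in astrocytes. Pdgfb was at 24.5, 19.7 and 39.4 CPM in microglia and 0.148, 1.98 and 0 CPM in astrocytes.

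Matrix and synapse-organising genes had 16 of 24 higher in astrocytes and 1 in microglia, with a median of −1.95. Sparcl1, which promotes synapse formation, was at 12091, 10692 and 11728 CPM in astrocytes and 205, 150.2 and 189.6 CPM in microglia (log2 fold change −5.99, SE 0.27, adjusted p 1.13e-08). Sparc, its antagonist, was at 499, 494 and 439 CPM in astrocytes and 773, 411 and 504 CPM in microglia and was not called (log2 fold change 0.24, interval −0.31 to 0.79). Chrdl1, which matures glutamate synapses, was at 291, 267 and 274 CPM in astrocytes and 0.588, 2.13 and 1.11 CPM in microglia (log2 fold change −7.78, SE 0.38, adjusted p 1.63e-08). The lecticans Ncan and Bcan, proteoglycans of the brain matrix, were higher in astrocytes. Ncan was at 2599, 2265 and 2468 CPM in astrocytes and 144, 166 and 338 CPM in microglia. Bcan was at 1434, 1341 and 1274 CPM in astrocytes and 49.97, 42.97 and 92.1 CPM in microglia. Tnr, a matrix protein of oligodendrocytes and perineuronal nets, was the gene called toward microglia, at 261, 243 and 324 CPM in microglia and 80.3, 112 and 97.6 CPM in astrocytes (log2 fold change 1.51, SE 0.23, adjusted p 0.000145). Nlgn1, a synaptic adhesion protein, was at 179.8, 225.3 and 168 CPM in microglia and 124, 129 and 173 CPM in astrocytes and was not called.

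Serpine2, the gene knocked out in the series, was higher in astrocytes than in microglia of controls. The gene (ENSMUSG00000026249) lies on GRCm38 chromosome 1, 79794197 to 79861180, minus strand. It was at 268, 489 and 469.8 CPM in astrocytes and 52.9, 41.3 and 78.6 CPM in microglia (log2 fold change −2.82, SE 0.31, adjusted p 1.03e-05). The groups did not overlap, as for 64.8% of all genes tested. The microglia libraries also carried the neuron transcripts given above, whose part in the Serpine2 level was not tested. Wild types and heterozygotes cannot be told apart among controls, so the alleles behind each value are not known. Reads of the gene remained in saline knockouts, at 15.8 to 18.8 CPM in microglia and 51.3 to 65.4 CPM in astrocytes. Of 27 genes of serpins, plasminogen and thrombin 24 were tested, 8 were higher in astrocytes, 4 in microglia and 12 were not called. F3, the tissue factor that starts thrombin generation, was at 515, 594 and 571 CPM in astrocytes and 10.9, 6.68 and 6.21 CPM in microglia (log2 fold change −6.15, SE 0.30, adjusted p 1.63e-08). Serpinh1, a collagen chaperone, was at 51.01, 53.6 and 51.7 CPM in astrocytes and 2.06, 1.06 and 2.14 CPM in microglia (log2 fold change −4.85, SE 0.38, adjusted p 5.68e-07). Serpina3n, a reactive astrocyte protein, was at 32.2, 35.9 and 27.5 CPM in astrocytes and 4.997, 2.89 and 6.87 CPM in microglia (log2 fold change −2.67, SE 0.40, adjusted p 0.000136). Serpini1, neuroserpin, was on the microglia side, at 83.2, 104 and 71.5 CPM in microglia and 11.4, 10.6 and 6.71 CPM in astrocytes (log2 fold change 3.17, SE 0.31, adjusted p 3.80e-06). Thbd, which redirects thrombin, was on that side too, at 8.08, 8.1999 and 11.7 CPM in microglia and 0, 0.396 and 0 CPM in astrocytes. Plat, tissue plasminogen activator, was higher in microglia at 103, 59.5 and 77.7 CPM in microglia and 39.8, 34.5 and 44.2 CPM in astrocytes. Plau, urokinase, was at 5.88, 6.53 and 6.58 CPM in microglia and 3.99, 5.55 and 4.22 CPM in astrocytes and was not called. F2r, the thrombin receptor PAR1, was at 6.76, 3.64 and 11.7 CPM in microglia and 19.1, 12.9 and 17.95 CPM in astrocytes and was not called. Plat lost its call without microglia library 1 (log2 fold change 0.81, adjusted p 0.0506). F2r was called without microglia library 3 (log2 fold change −1.66, adjusted p 0.0174).

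Genes known to respond within minutes to handling were higher in astrocytes, whose cells had been held at 34.5C with papain. Of 24 such genes, 17 were higher in astrocytes and 1 in microglia, with a median of −2.47. Fos was at 1751, 2474 and 2741 CPM in astrocytes and 27.04, 21.6 and 28.7 CPM in microglia (log2 fold change −6.49, SE 0.30, adjusted p 1.37e-08). Jun, its partner in the AP-1 complex, was at 835, 1267 and 1113 CPM in astrocytes and 115, 45.9 and 97.7 CPM in microglia (log2 fold change −3.63, SE 0.34, adjusted p 2.65e-06). Dusp1, a phosphatase induced with them, was at 1129, 1619 and 1169.5 CPM in astrocytes and 154, 61.04 and 163 CPM in microglia (log2 fold change −3.37, SE 0.36, adjusted p 7.12e-06). In each of these the lowest astrocyte library stood several times above the highest microglia library. Atf3, a stress factor, was at 44.1, 44.5 and 46.2 CPM in astrocytes and 2.65, 4.56 and 1.77 CPM in microglia. Hspa1a, a heat shock gene with a near-identical copy, was at 34.6, 31.7 and 36.1 CPM in astrocytes and 1.62, 0.607 and 0.739 CPM in microglia. Socs3, an inhibitor of cytokine signalling, was at 107, 60.4 and 110.1 CPM in astrocytes and 6.17, 3.04 and 6.502 CPM in microglia (log2 fold change −4.12, SE 0.38, adjusted p 2.18e-06). Egr3, an activity-dependent factor of neurons, was the gene called toward microglia, at 19.99, 33.7 and 48.9 CPM in microglia and 4.58, 8.98 and 7.49 CPM in astrocytes (log2 fold change 2.28, SE 0.42, adjusted p 0.000635). Ccl3, a chemokine that microglia make when handled, was at 2.79, 4.404 and 2.29 CPM in microglia and 7.54, 7.66 and 7.03 CPM in astrocytes and was not called. Ccl4, its neighbour, was not called either. The digestion step and the cell type cannot be told apart here. Reactive astrocyte genes were also present in astrocytes. Gfap was at 274, 211 and 259 CPM in astrocytes and 3.82, 2.13 and 4.36 CPM in microglia (log2 fold change −6.14, SE 0.33, adjusted p 2.73e-08). Vim was at 81.9, 75.4 and 83.2 CPM in astrocytes and 12.9, 20.5 and 9.38 CPM in microglia (log2 fold change −2.50, SE 0.32, adjusted p 3.72e-05). Of 13 pan-reactive genes 11 were tested, 7 were higher in astrocytes, and Lcn2, given above, was the 1 higher in microglia.

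Genes of general cell upkeep leaned to astrocytes on this scale. Of 33 nuclear genes of oxidative phosphorylation, 24 were higher in astrocytes and none in microglia, with a median of −1.40. Atp5b, a subunit of ATP synthase, was at 1034, 829 and 741 CPM in astrocytes and 318, 239 and 208 CPM in microglia (log2 fold change −1.77, SE 0.25, adjusted p 6.67e-05). Cox6a1, a subunit of cytochrome oxidase, was at 495, 326 and 222 CPM in astrocytes and 71.6, 22.2 and 46.5 CPM in microglia (log2 fold change −2.89, SE 0.41, adjusted p 7.51e-05). Of 40 ribosomal protein genes, which share reads with many near-identical copies, 16 were higher in astrocytes and 1 in microglia. These counts were 9 and 0 without microglia library 2 or astrocyte library 1, 10 and 0 without astrocyte library 2, 9 and 2 with upper-quartile scaling, and 3 and 0 against a 2-fold threshold. Of 14 common reference genes 7 were higher in astrocytes and none in microglia. Ywhaz was at 454, 458 and 487 CPM in astrocytes and 153, 158 and 156 CPM in microglia (log2 fold change −1.58, SE 0.20, adjusted p 3.62e-05). Gusb was at 60.996, 42.8 and 49.4 CPM in microglia and 55.6, 23.6 and 46.4 CPM in astrocytes and was not called. Few genes could be placed close to equality. Among all genes tested, 9 (0.0446%) had a 95% interval of the log2 fold change within 0.5 of 0. Srsf3, a splicing factor, was the most abundant of them, at 283, 279 and 197 CPM in microglia and 231, 269.9 and 254 CPM in astrocytes (log2 fold change 0.01, interval −0.47 to 0.49). Zmynd11, Copa, Ivns1abp, Itfg1, Ube4b and Trappc11 were in the same set.

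**Figure D4:**
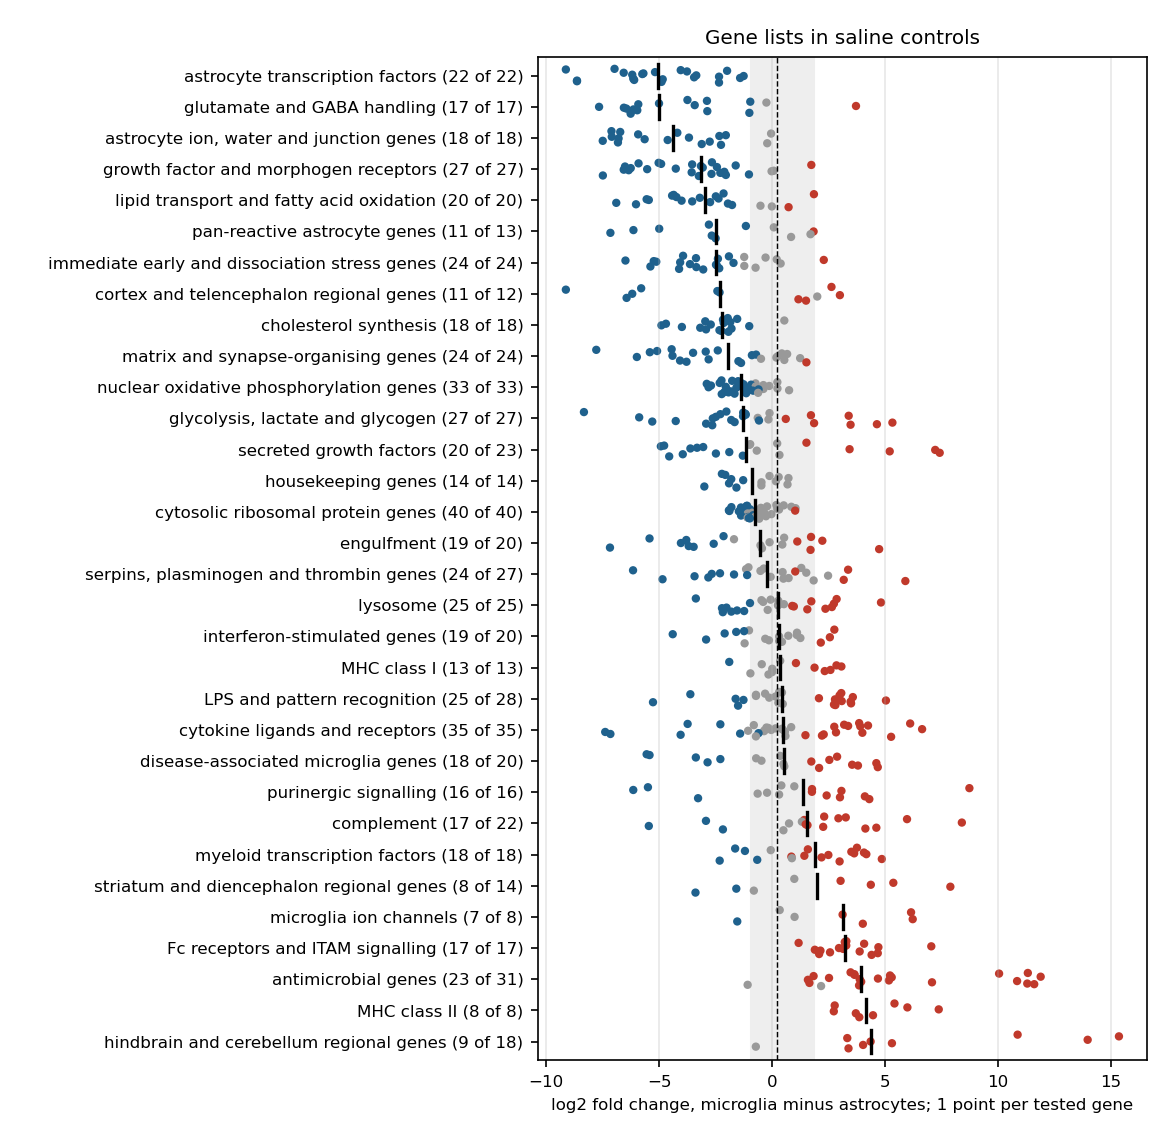
Log2 fold change (microglia minus astrocytes) of every tested gene of 32 lists, with tested and listed members in brackets, a bar at each list's median, the dashed line at the median of all genes (0.23) and the grey band over the middle 50% of all genes. Astrocyte transcription factors and glutamate handling lie at the astrocyte end, Fc receptor, class II and hindbrain genes at the microglia end, and the LPS recognition, cytokine, lysosome and engulfment lists have called genes (red for microglia, blue for astrocytes) on both sides.

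Within a group, the libraries differed most in sex-linked genes. Xist was at 4.56, 3891 and 3.99 CPM in microglia and 2557, 11.1 and 12.6 CPM in astrocytes, with the single high library of each group being its female mouse, and Ddx3y, Kdm5d and Eif2s3y were high in the others. Next in microglia came Lars2, given above, and Hist1h4d, a histone gene at 29.7, 3.34 and 69.9 CPM, both lowest in library 2. In astrocytes these were Scn2b, a neuronal sodium channel subunit, at 9.76, 0.132 and 0.468 CPM, and Slit3, a guidance protein, at 0.296, 0.132 and 4.84 CPM. Scn2b was high in astrocyte library 1 and Slit3 in astrocyte library 3. Gad2, the neuron marker of inhibitory cells, was high in astrocyte library 3 as well, at 1.92, 2.77 and 47.1 CPM. Lars2 lost its call with any 1 of astrocyte library 1, microglia library 1 and microglia library 3 left out, at log2 fold changes of −4.04 to −2.36 and adjusted p of 0.0786 to 0.222. Hist1h4d lost its call with any 1 of astrocyte library 1, astrocyte library 2 and microglia library 1 left out, at log2 fold changes of −2.17 to −1.78 and adjusted p of 0.101 to 0.194. Gad2 was called without astrocyte library 3 (log2 fold change 4.65, adjusted p 6.52e-06).

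The same comparison could be made in libraries with no sample in common, those of saline-injected Serpine2 knockouts. There 7080 genes were higher in microglia (34.7% of 20400 tested) and 5585 higher in astrocytes (27.4%). Of the 6145 genes higher in microglia of controls, 5275 (85.8%) were also called so in knockouts, which is 74.5% of the knockout calls. For astrocytes the overlap was 4421 genes, 90.4% of the control calls and 79.2% of the knockout calls. In the opposite direction 0 and 1 genes were called. Of 680 listed genes tested in both, 653 had the same sign, and of the 512 called in controls 512 had. The same share over all genes was not computed, so these counts show nothing particular to the listed genes. The log2 fold change of Tlr3 was −5.27 in controls and −5.98 in knockouts. In the same order, Trem2 was at 4.67 and 4.45, Slc1a2 at −6.56 and −6.27, and Fos at −6.49 and −6.90 (log2 fold changes). S100a8 was at 303 to 647 CPM in knockout microglia and 0 to 0.154 CPM in knockout astrocytes. A test of the difference itself, whether the gap between cell types changed with genotype in saline, called 0 of 22215 genes by edgeR, with 1163 at an unadjusted p under 0.05, and 2 by DESeq2. Neither of those 2 is a listed gene. A p that misses the threshold does not show that the genotypes are alike.

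**Figure D5:**
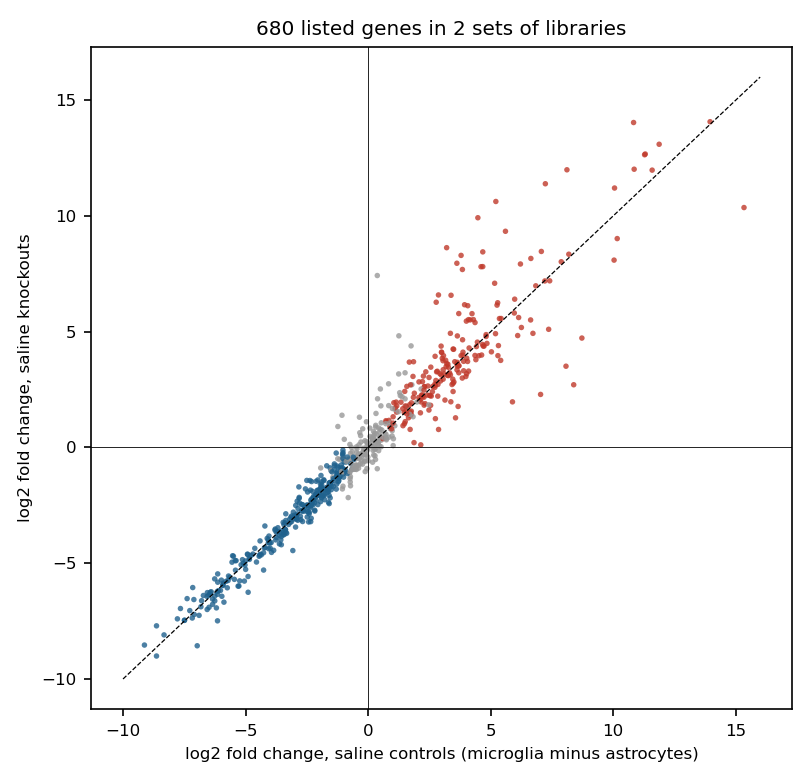
Log2 fold change between microglia and astrocytes in saline knockouts (vertical) against saline controls (horizontal) for the 680 listed genes tested in both, with 1 point per gene, red or blue where called higher in microglia or astrocytes of controls, grey where not, and the dashed line at equal values. The points follow the line, and 653 of 680 lie on the same side of 0 on both axes, a share not computed over all genes.

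After LPS the comparison can be read beside these values, in other mice. In LPS-injected controls 7204 genes were higher in microglia (34.5% of 20885) and 5570 in astrocytes (26.7%), and in LPS-injected knockouts 5615 (27.8% of 20211) and 4844 (24%). Of the saline control calls toward microglia, 5041 were called again in LPS controls, which is 82.0% of the former and 70.0% of the latter, and 22 were called in the opposite direction. Toward astrocytes 4220 were called again, 86.3% of the former and 75.8% of the latter, and 2 were opposite. In controls the log2 fold change of Tmem119 was 5.43 after saline and 3.26 after LPS. In the same order, Lcn2 was at 1.83 and −3.81, Cd14 at 3.06 and 1.56, and Tlr2 at 3.47 and 0.01. Lcn2 ranged from 80.3 to 3119.9 CPM in astrocytes and from 102 to 209 CPM in microglia of LPS controls. The difference between saline and LPS in these gaps was not tested here.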

How the data were processed

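Each of the 24 samples had 1 file of read counts per gene. The deposited counts were made with STAR 2.6.0c and HTSeq, per the submitters' processing notes, which name GRCm38 and GRCm39 without tying either to a file, and the strand setting is not given in the sources used here. Microglia files listed 53700 identifiers and astrocyte files 55487, and 52404 were shared. Summary rows and 37 mitochondrial genes were dropped, and symbols, positions on GRCm38 and exon lengths came from the GENCODE annotation.

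Groups followed the sample titles. Genes were kept by filterByExpr (minimum count 10, minimum total 15), scaled by TMM and tested with edgeR 4.0.16 by robust quasi-likelihood in R 4.3.3, on the 6 libraries of the comparison, with Benjamini-Hochberg adjustment over all genes tested. Log2 CPM values used a prior count of 2. Bounds for genes at 0 used 3 counts over the group, and ratios at 1 to 3 counts have exact 95% intervals. No label says that libraries of a group came from separate mice beyond the sex given for each, so p-values measure the spread between these samples. Reads were counted without molecular identifiers, so the exact ratio intervals and the bounds cover counting error only. Intervals of log2 fold changes come from edgeR and carry the spread between libraries.

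Named genes were the 12 per direction with the largest fold change at 50 CPM or more, the 8 per direction with the highest CPM at 2-fold or more, the 6 most variable per group, the 8 most abundant with an interval within 0.5 of 0, Serpine2, Xist and Ddx3y, and list members chosen by level, role or opposite direction. Predicted genes and ribosomal RNA genes were counted and not named, and some genes that the rule selects are not reported here. The members, lists and tests were chosen with earlier results of these data known, so no list is independent evidence of its direction. On simulated counts with 20093 genes tested, 84% of 50 genes changed 4-fold, 8% of those changed 2-fold and 100% of those changed 8-fold were recovered. DESeq2 1.42.0, other scalings, filters, a sex term and left-out libraries were tried as alternatives. Libraries numbered alike in both groups did not deviate together. Microglia library 2, with the highest share of reads assigned to no gene, was kept in the values reported. Reads of genes with near-identical copies (ribosomal proteins, Actb, class I chains, Lyz2, Gstm1, Ifit3) and of overlapping or antisense genes may be split or lost.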

Additional observations from a re-analysis of the deposited data

How the results depend on the processing

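Over 726 named or listed genes and the alternatives run, 12955 pairs of a gene and an alternative were compared with the value reported: 12438 stayed on the same side of the threshold, 364 lost the call, 153 gained it and 0 changed sign among called genes. Tested against a 2-fold change with glmTreat, 2839 genes were higher in astrocytes of saline controls, 3147 in saline knockouts and 2506 in both. The same test left 15 oxidative phosphorylation genes and 3 LPS and pattern recognition genes higher in astrocytes of saline controls. Among protein-coding genes only, an alternative chosen after seeing the data, 4545 genes were higher in microglia of saline knockouts. For the difference between genotypes, DESeq2 called 2 genes and no filter on low counts gave 81. Upper-quartile scaling moved the median of all genes by 0.22 on the log2 scale and gave 7016 genes higher in microglia and 4134 in astrocytes, so 62.9% of calls were toward microglia against 55.7% with TMM. A separate fit of protein-coding genes only, scaled by TMM, moved the median of the genes it shared with the main fit by 0.14. Medians of the endothelial, mural, vascular fibroblast, interferon-stimulated, lysosomal and serpin lists changed sign over the alternatives. With the replicate number as a block, 5892 genes were higher in microglia and 4546 in astrocytes. Libraries numbered 1 differed in sex between the cell types, as did those numbered 2, so these numbers do not mark the same mouse. Deviations of libraries with the same number correlated at 0.035, 0.035 and −0.095. Leaving out 1 library gave 5484 to 6743 genes higher in microglia and 4147 to 4778 in astrocytes of saline controls. In saline knockouts the ranges were 5800 to 7938 and 4527 to 5894, in LPS controls 5796 to 8275 and 4458 to 5862, and in LPS knockouts 4323 to 6878 and 3412 to 5275. The difference between genotypes stayed at 0 genes in 12 such fits. Depth limits genes of few counts most. The simulated recovery of 2-fold differences came from counts in which few genes were changed, while 54.7% of genes were called in saline controls. The adjusted threshold is stricter where few genes change, so that recovery cannot be carried over to these data.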

Other observations

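Olfactory and vomeronasal receptor genes, which brain cells are not known to use, were looked at after seeing the data. Of 1418 such genes, 157 to 214 had 1 or more counts in microglia libraries and 48 to 66 in astrocyte libraries, at 163 to 310 and 43.9 to 48.9 CPM before TMM scaling, summed. Protein-coding genes were also split by the length of the gene in the genome. Those over 100 kb had 42.6% called toward microglia and 26.1% toward astrocytes, with a median log2 fold change of 0.48. Those under 10 kb (3293 tested) had 21.8% and 28.4%, with a median of −0.14. Both patterns stand beside the higher share of reads assigned to no gene in microglia libraries, and their part in these values was not tested.

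The genes that DESeq2 called for a difference between genotypes in the gap between cell types were Gm28320 and AC104328.1. Gm28320 had a log2 difference, controls minus knockouts, of −2.69 (DESeq2 adjusted p 0.0029, edgeR adjusted p 0.882), and AC104328.1 one of −4.26 (DESeq2 adjusted p 0.042, edgeR adjusted p 0.882). Both were named after their values were seen.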
